A study of Mus musculus with 12 samples.

Results

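The 10 genes described here are interferon effectors, namely 4 IFIT genes (*Ifit1*, *Ifit2*, *Ifit3*, and *Ifit3b*), *Isg15*, *Usp18*, *Ifi44*, *Rsad2*, *Mx1*, and *Mx2*. They were taken by name from the 55536 genes of the deposited count table, and they were chosen by their counts in the 4 groups of the study, which were known beforehand. Their differences between groups are therefore given as a description, without a test. RNA-seq was performed on C2C12 GFP cells, a mouse myoblast line that makes green fluorescent protein. The control cells grew on bare plates, and the others on a coating of Collagen I, of fibronectin, or of Geltrex™, a basement membrane matrix made mostly of laminin, Collagen IV, and entactin. All groups were grown in serum-containing medium and brought to differentiate in low-serum medium, and no interferon or virus is named among the treatments. The day of differentiation at which RNA was taken for sequencing is not given in the sources used here. Each group had 3 samples, giving 12 in all, and whether these came from separate cultures is not given in the sources used here, so the errors and p-values measure only the spread between these samples, which may be technical. Every sample comes from 1 cell line, which limits the groups as a model of muscle tissue.

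Interferons are secreted proteins that bind receptors on the cell surface. Receptor-bound Janus kinases then phosphorylate STAT proteins, which join IRF9 into a complex that binds the interferon-stimulated response element (ISRE), a DNA motif near the start of many antiviral genes. IRF3 and IRF7, which are switched on when cells sense viral nucleic acid, bind closely related letters. IFIT proteins bind foreign or AU-rich RNA, ISG15 is a ubiquitin-like protein that is joined to other proteins, and USP18 removes it and also holds back the interferon receptor. RSAD2, or viperin, makes a nucleotide that stops viral RNA chains, the MX proteins are dynamin-like GTPases that trap viral components, and IFI44 is an interferon-inducible cytoplasmic protein.

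The genes lie on 6 chromosomes of GRCm38. The IFIT genes form a cluster on the plus strand of chromosome 19 between 34550694 and 34650009, a span of 99.3 kb, while *Mx1* and *Mx2* lie 72.4 kb apart on chromosome 16. *Isg15* is on chromosome 4 (156199424 to 156200818, minus strand), *Usp18* on chromosome 6 (121245906 to 121270917, plus strand), *Ifi44* on chromosome 3 (151730922 to 151749960, minus strand), and *Rsad2* on chromosome 12 (26442746 to 26456452, minus strand). GENCODE M21 lists 9 of the genes as protein coding and *Mx2* as a polymorphic pseudogene, a gene that is intact in some mouse strains and broken in others. *Ifit3* and *Ifit3b* are near copies: their transcripts were identical at 1663 of 1697 aligned bases (98.0%), and 296 windows of 150 bases, the length of 1 read, occur in both. Counts of these genes are uncertain where the reads could be split between them. *Ifit1* shared 31 such windows with *Ifit1bl2*, and 124 exon bases of *Usp18* overlap *Gm44148*.

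Promoter windows from RefSeq, covering 250 bases before and 50 bases after an annotated start on GRCm38.p6, were found for 7 of the 10 genes (8 windows, since *Ifit2* has 2 starts). *Usp18*, *Mx1*, and *Mx2* had no entry. The sequences below show which of them carry the ISRE core, searched on both strands as GAAA, 2 bases of any kind, and GAAA again, because the genes differ in it. Capitals mark this core and, as a search added after the windows were seen, the same repeats with 3 bases between them. Each sequence is written 5′ to 3′ on the strand of its gene.
*Isg15* (chr4:156200769-156201068, minus strand): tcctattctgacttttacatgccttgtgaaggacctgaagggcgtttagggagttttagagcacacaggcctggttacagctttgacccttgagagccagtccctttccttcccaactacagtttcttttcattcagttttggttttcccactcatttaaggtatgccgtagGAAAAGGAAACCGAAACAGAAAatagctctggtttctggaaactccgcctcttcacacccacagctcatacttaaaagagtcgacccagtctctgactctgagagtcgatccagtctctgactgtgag
*Ifit1* (chr19:34640639-34640938, plus strand): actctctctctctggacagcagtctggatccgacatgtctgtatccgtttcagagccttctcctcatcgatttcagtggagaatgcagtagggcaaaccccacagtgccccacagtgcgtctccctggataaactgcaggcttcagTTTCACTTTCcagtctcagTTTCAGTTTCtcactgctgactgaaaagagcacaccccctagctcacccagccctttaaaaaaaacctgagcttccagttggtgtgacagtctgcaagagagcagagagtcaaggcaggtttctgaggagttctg
*Ifit2*, first start (chr19:34550444-34550743, plus strand): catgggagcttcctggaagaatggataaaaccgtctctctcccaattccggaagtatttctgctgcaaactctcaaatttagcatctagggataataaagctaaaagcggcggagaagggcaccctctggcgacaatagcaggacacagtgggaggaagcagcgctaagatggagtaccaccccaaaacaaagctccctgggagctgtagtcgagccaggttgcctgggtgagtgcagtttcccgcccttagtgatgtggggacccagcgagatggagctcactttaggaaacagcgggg
*Ifit2*, second start (chr19:34550838-34551137, plus strand): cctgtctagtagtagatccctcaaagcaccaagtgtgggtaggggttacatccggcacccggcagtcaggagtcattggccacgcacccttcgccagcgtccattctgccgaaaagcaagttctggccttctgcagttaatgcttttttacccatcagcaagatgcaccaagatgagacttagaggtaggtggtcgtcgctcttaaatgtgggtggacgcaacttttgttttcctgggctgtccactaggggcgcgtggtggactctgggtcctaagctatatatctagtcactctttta
*Ifit3*, part of the window (chr19:34583358-34583438, plus strand): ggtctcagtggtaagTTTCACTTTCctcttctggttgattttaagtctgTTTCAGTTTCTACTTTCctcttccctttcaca
*Ifit3b*, part of the window (chr19:34607754-34607834, plus strand): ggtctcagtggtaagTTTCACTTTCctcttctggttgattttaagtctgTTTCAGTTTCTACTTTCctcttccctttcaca
*Rsad2*, part of the window (chr12:26456536-26456587, minus strand): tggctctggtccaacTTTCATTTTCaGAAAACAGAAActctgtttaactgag
*Ifi44*, part of the window (chr3:151749940-151749980, minus strand): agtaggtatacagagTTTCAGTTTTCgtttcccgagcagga

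The *Isg15* window held 3 overlapping ISRE cores, which began at -78, -72, and -66 relative to the start. *Ifit1* had 2 cores that began at -104 and -85, *Ifit3* and *Ifit3b* had 2 each, and *Rsad2* had 1. The printed stretches of *Ifit3* and *Ifit3b* are the same 81 bases, although the cores began at -156 and -122 relative to the start of *Ifit3* and at -188 and -154 relative to that of *Ifit3b*. *Ifi44* had no core of the first kind and 1 match with the additional base, and neither *Ifit2* window had a match to either. Among all 32851 promoter windows of the table, 3.44% held the core and 2.75% the longer form. The longer form overlapped the core in *Ifit3* and *Ifit3b* and lay beside it in *Rsad2*. The gamma-activated site, TTCNNNGAA, was in 8.30% of all windows and, of the windows here, only in that of the first *Ifit2* start, at -241. These matches are descriptions of letters and not of bound sites. Sequence outside the windows was not searched, for *Ifit2* or any other gene.

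**Figure D1:**
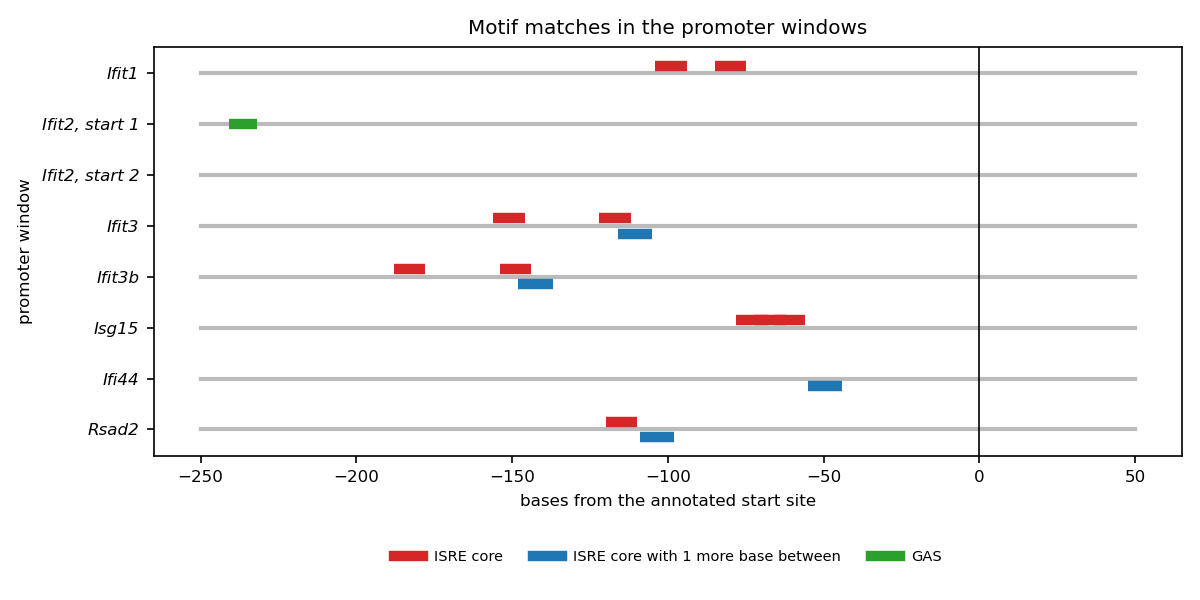
Position of motif matches in the 8 promoter windows, with bases from the annotated start on the horizontal axis and 1 line for each window. Red bars are the ISRE core, blue bars the form with 1 more base between the repeats, and the green bar the gamma-activated site; the cores begin between -188 and -66 and the *Ifit2* windows hold none.

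Total counts on genes lay between 22520404 and 27351766 per sample, so 1 count was near 0.04 CPM (reads of a gene scaled to library size, here with edgeR's TMM factors). Of the 10 genes, 8 passed the filter on low counts, while *Rsad2* and *Mx1* never exceeded 8 and 16 counts and were left untested. *Usp18* and *Ifi44* had fewer than 10 counts in each of the 9 samples outside Geltrex™, and *Isg15* reached 10 in 2 of them, so that these 3 genes passed the filter only through the Geltrex™ samples. The Geltrex™ samples resembled each other more closely than those of other groups (chi-square of 2.18 to 4.54 per gene between pairs, against 7.73 to 65.1 in the other groups), which is still above sampling noise, so they were kept as 3 samples. Of 10 muscle markers, all were detected in every group, and their summed level lay between 6868 and 7773 CPM in the control, 7486 and 7696 on Collagen I, 2290 and 2669 on fibronectin, and 3149 and 3419 on Geltrex™.

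On Geltrex™ each of the 10 genes had a higher mean than in any other group, and for 9 of them all 3 Geltrex™ samples lay above all 9 other samples. *Ifit2* was the exception. Without *Ifit2*, the summed level of the genes lay between 4.0 and 7.88 CPM in the 9 other samples and was 59.0, 65.3, and 104 CPM on Geltrex™. Over all genes tested, 8.21% had every Geltrex™ sample above every other sample. In bulk RNA, fewer cells that express a gene and less RNA of it per cell cannot be told apart. The 3 comparisons with Geltrex™ share its samples, so they are not independent of each other.

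**Figure D2:**
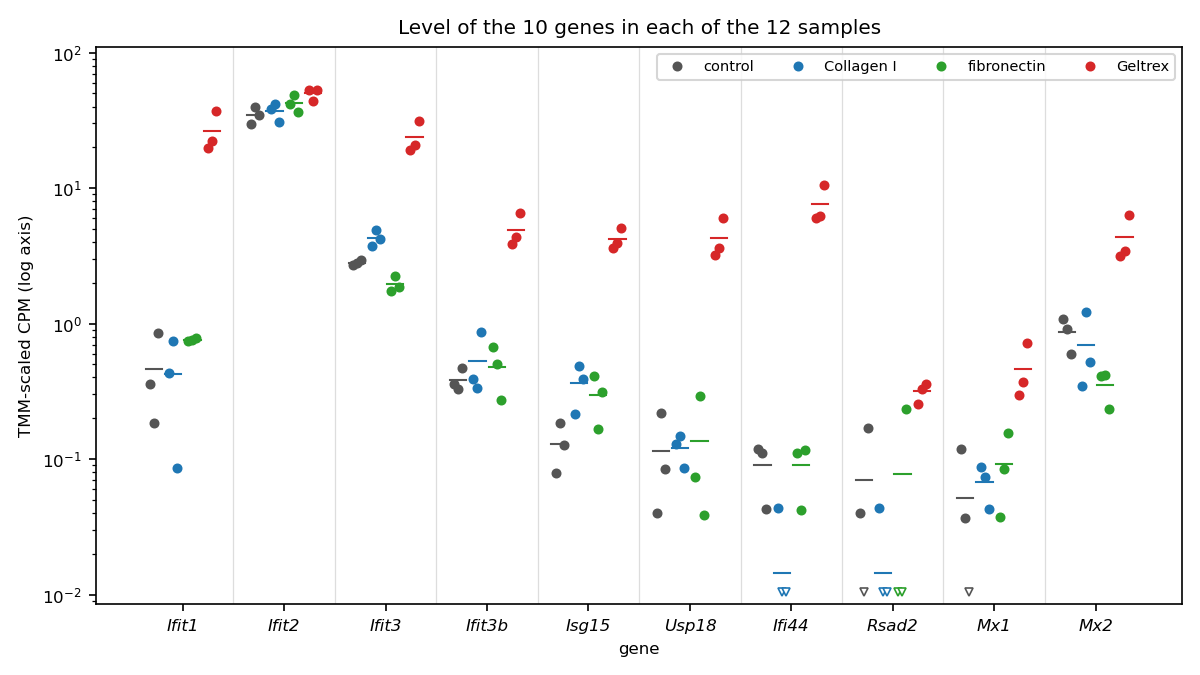
TMM-scaled CPM of the 10 genes on a log axis, with 1 point for each of the 12 samples, coloured by group, and a bar at the mean of 3 samples. Open triangles at the lower edge are samples with 0 counts. The Geltrex™ points stand apart for every gene except *Ifit2*, where the 4 groups lie between 29.6 and 53.3 CPM, and *Rsad2*. For *Rsad2* the lowest Geltrex™ point, at 0.256 CPM, lies just above a fibronectin point at 0.233 CPM.

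*Ifit1*, whose protein binds viral RNA caps that lack host methylation, had counts of 9, 5, and 20 in the control samples, 10, 20, and 2 on Collagen I, 20, 18, and 20 on fibronectin, and 461, 542, and 825 on Geltrex™. The Geltrex™ samples were all far above the rest, and the other 3 groups overlapped. Its mean level was 0.464 ± 0.345 CPM (SD, n = 3) in the control, 0.421 ± 0.329 on Collagen I, 0.758 ± 0.0173 on fibronectin, and 26.4 ± 9.44 on Geltrex™. On the log2 scale Geltrex™ was higher by 5.86 over the control (SE 0.39), 5.91 over Collagen I (SE 0.39), and 5.11 over fibronectin (SE 0.36). Without control replicate 3 the first of these was 6.60, and without Collagen I replicate 2 the second was 6.65.

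*Ifit2*, which encodes the AU-rich RNA-binding member of the family, had 744, 1074, and 820 counts in the control, 887, 1116, and 712 on Collagen I, 1131, 1167, and 943 on fibronectin, and 1236, 1073, and 1181 on Geltrex™. It was well expressed in every sample, and its Geltrex™ samples lay above those of the control and Collagen I but overlapped those of fibronectin. The means were 34.6 ± 4.91 CPM in the control, 36.9 ± 5.55 on Collagen I, 42.5 ± 6.13 on fibronectin, and 50.1 ± 5.10 on Geltrex™ (SD, n = 3). The log2 fold change of Geltrex™ over the control was 0.53 (95% interval 0.25 to 0.82), under 2-fold. In the order of the 4 means, each neighbouring pair of groups overlapped. *Ifit2* made up 83.2% to 91.5% of the summed CPM of the 10 genes in each of the 9 other samples and 33.8% to 47.2% on Geltrex™.

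*Ifit3*, an adaptor of the IFIT family, had 68, 76, and 69 counts in the control, 86, 131, and 98 on Collagen I, 47, 54, and 48 on fibronectin, and 444, 505, and 698 on Geltrex™. No group overlapped another. The order was Geltrex™ at 23.7 ± 6.75 CPM, Collagen I at 4.27 ± 0.572, control at 2.81 ± 0.114, and fibronectin at 1.96 ± 0.270 (SD, n = 3). Geltrex™ gave a log2 fold change of 3.08 over the control (SE 0.19), 2.47 over Collagen I (SE 0.18), and 3.60 over fibronectin (SE 0.20). Collagen I over the control was 0.61 (SE 0.20), and fibronectin over the control was -0.52 (SE 0.22), both under 2-fold. Fibronectin over Collagen I was -1.13 (SE 0.21), and 25.9% of all genes tested had every fibronectin sample below every Collagen I sample.

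*Ifit3b*, the near copy of *Ifit3*, had 9, 9, and 11 counts in the control, 9, 9, and 20 on Collagen I, 18, 12, and 7 on fibronectin, and 90, 105, and 146 on Geltrex™. Geltrex™ stood apart at 4.92 ± 1.46 CPM (SD, n = 3), and the other groups overlapped with means of 0.385 to 0.529 CPM. The difference on Geltrex™ was 3.66 on the log2 scale over the control (SE 0.36), 3.22 over Collagen I (SE 0.35), and 3.33 over fibronectin (SE 0.35). The order of Collagen I, control, and fibronectin seen in *Ifit3* was not seen in *Ifit3b*, whose counts were lower. Because reads of the pair can be exchanged, part of the *Ifit3b* counts may belong to *Ifit3* or the reverse.

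*Isg15* had 2, 5, and 3 counts in the control, 5, 13, and 9 on Collagen I, 11, 4, and 8 on fibronectin, and 84, 95, and 113 on Geltrex™. Its mean was 0.130 ± 0.0520 CPM in the control, 0.363 ± 0.135 on Collagen I, 0.296 ± 0.121 on fibronectin, and 4.20 ± 0.793 on Geltrex™ (SD, n = 3). All Collagen I samples were above the control samples, with a log2 fold change of 1.45 (SE 0.51) that rests on 27 against 10 counts. Between Collagen I and fibronectin, and between fibronectin and the control, the samples overlapped. For Geltrex™ the log2 fold change was 4.94 over the control (SE 0.38), 3.50 over Collagen I (SE 0.32), and 3.79 over fibronectin (SE 0.33).

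*Usp18*, which encodes the protease that removes ISG15, had 1, 6, and 2 counts in the control, 3, 4, and 2 on Collagen I, 2, 7, and 1 on fibronectin, and 75, 87, and 133 on Geltrex™. The first 3 groups overlapped throughout, with means between 0.115 and 0.135 CPM, and Geltrex™ was at 4.26 ± 1.51 CPM (SD, n = 3). Its log2 fold changes on Geltrex™ were 5.11 over the control (SE 0.49), 5.06 over Collagen I (SE 0.49), and 4.97 over fibronectin (SE 0.48). Without control replicate 2 the value over the control was 6.01, and without fibronectin replicate 2 that over fibronectin was 6.10.

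*Ifi44* had 3, 3, and 1 counts in the control, 1, 0, and 0 on Collagen I, 3, 1, and 3 on fibronectin, and 140, 150, and 235 on Geltrex™, a mean of 7.59 ± 2.61 CPM there (SD, n = 3). It was all but silent outside Geltrex™, with no more than 3 counts in a sample, and the 3 other groups overlapped. The log2 fold change of Geltrex™ was 6.29 over the control (SE 0.40) and 6.30 over fibronectin (SE 0.40). Against Collagen I, 525 counts stood against 1, a ratio of 550 with an exact 95% counting interval of 98.3 to 21760. Its neighbour *Ifi44l*, the closest coding gene at 8776 bases, had 0 counts in each Geltrex™ sample and at most 4 elsewhere.

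*Rsad2* had 1, 0, and 4 counts in the control, 1, 0, and 0 on Collagen I, 0, 0, and 6 on fibronectin, and 6, 8, and 8 on Geltrex™. *Mx1* had 3, 1, and 0 in the control, 2, 2, and 1 on Collagen I, 1, 2, and 4 on fibronectin, and 7, 9, and 16 on Geltrex™. Both were barely detected, and in both the lowest Geltrex™ level lay above the highest of the other samples. For *Rsad2* this separation was smaller than 1 count, since Geltrex™ replicate 1 and fibronectin replicate 3 both had 6 counts and differed through library scaling, at 0.256 and 0.233 CPM. The ratio of Geltrex™ to the control was 4.78 (95% counting interval 1.77 to 16.2) for *Rsad2* and 8.70 (3.08 to 33.9) for *Mx1*. The log2 fold change over the control was 2.16 for *Rsad2*, 1.56 without control replicate 2, and 3.73 without control replicate 3. For *Mx1* it was 3.03, and 4.24 without control replicate 1. The intervals cover counting error only and leave out the spread between samples. They also treat reads as independent molecules, and reads are not, so the intervals may be too narrow. *Cmpk2*, the coding gene next to *Rsad2*, had 2, 3, and 7 counts on Geltrex™ and at most 1 in any other sample.

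*Mx2* had 27, 25, and 14 counts in the control, 8, 33, and 12 on Collagen I, 11, 10, and 6 on fibronectin, and 74, 84, and 141 on Geltrex™. Its mean was 0.862 ± 0.244 CPM in the control, 0.697 ± 0.466 on Collagen I, 0.353 ± 0.104 on fibronectin, and 4.33 ± 1.77 on Geltrex™ (SD, n = 3). Geltrex™ stood apart, and all fibronectin samples lay below the control samples, with a log2 fold change of -1.28 (SE 0.50). The log2 fold change of Geltrex™ was 2.31 over the control (SE 0.37), 2.59 over Collagen I (SE 0.39), and 3.59 over fibronectin (SE 0.43). The value over Collagen I was 3.31 without Collagen I replicate 2.

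Over the 10 genes, the median log2 fold change of Geltrex™ was 3.37 over the control, 3.36 over Collagen I, and 3.60 over fibronectin, beside medians of -0.01, -0.03, and 0.005 over all 14499 genes tested. All 10 had every Geltrex™ sample above every control sample (25.3% of all genes) and every Collagen I sample (27.6%), and 9 had every Geltrex™ sample above every fibronectin sample (21.2%). The median was 0.073 between Collagen I and the control and 0.25 between fibronectin and the control. Of the members, 2 had all Collagen I samples above the control (*Ifit3* and *Isg15*, 8.18% of all genes), and 2 had all fibronectin samples below it (*Ifit3* and *Mx2*, 20.3% of all genes).

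**Figure D3:**
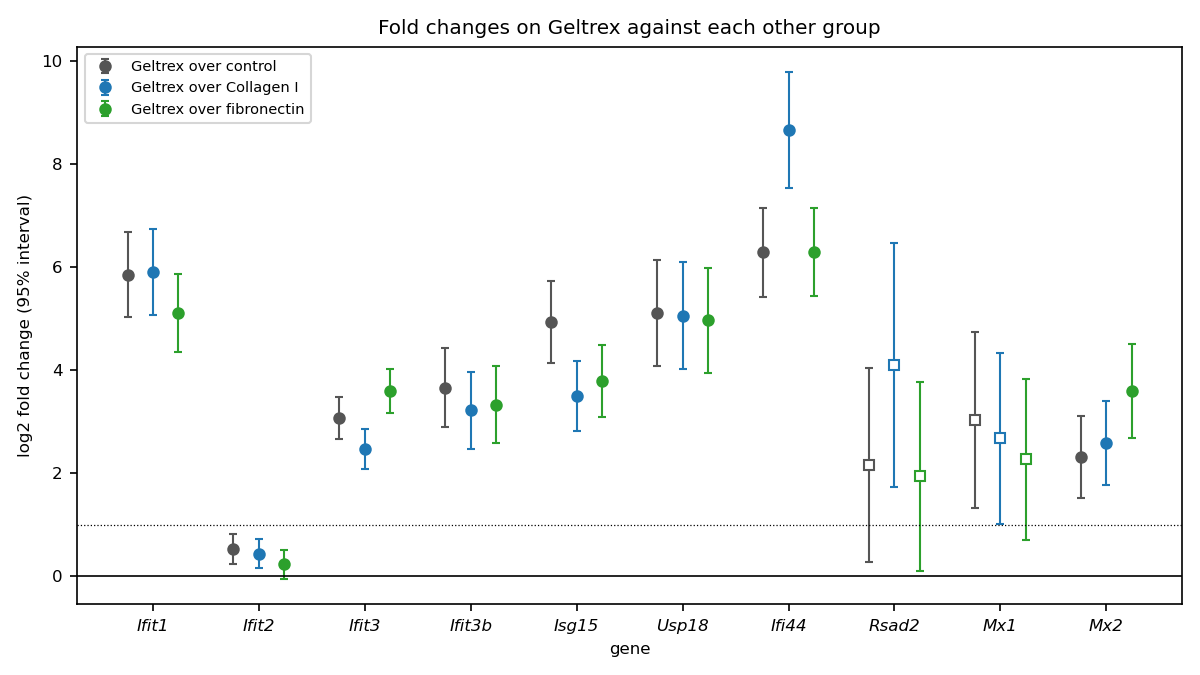
Log2 fold changes of Geltrex™ over the control, Collagen I, and fibronectin for each of the 10 genes, with 95% intervals from edgeR; open squares are the 2 genes under the filter and the dotted line is 2-fold. All 3 *Ifit2* points lie between 0.24 and 0.53, and those of *Ifi44* between 6.29 and 8.66, of which the highest rests on 1 Collagen I count.

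Scaled by exon length, so that levels can be compared between genes, *Ifit3* was at 13.6 ± 3.87 CPM per kb on Geltrex™, *Ifit2* at 12.8 ± 1.30, and *Ifit1* at 9.94 ± 3.55 (SD, n = 3), and neighbours in this order overlapped. *Isg15* followed at 5.55 ± 1.05 CPM per kb and *Ifit3b* at 2.46 ± 0.731, neither overlapping the gene before it. *Usp18*, *Ifi44*, and *Mx2* lay at 1.53, 1.24, and 1.20 CPM per kb and overlapped, while *Mx1* and *Rsad2* were at 0.123 and 0.0728. The length joins the exons of all annotated transcripts, 2790, 6129, and 3614 bases for *Usp18*, *Ifi44*, and *Mx2*. Their longest transcripts have 1771, 4064, and 2476 bases, so these levels may be too low beside genes with 1 transcript. In the control the order began with *Ifit2* at 8.81 ± 1.25 CPM per kb and *Ifit3* at 1.61 ± 0.0653, and all others were under 0.32 in every sample.

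The 3 Geltrex™ samples also differed from each other. Geltrex™ replicate 3 had the highest CPM for all 10 genes, and replicate 1 the lowest for 9, *Ifit2* being the exception. Over all genes tested, replicate 3 was the highest for 34.1%. For *Mx1* replicate 3 was 2.15 times the mean of the other two, for *Mx2* 1.92 times, for *Ifit1* 1.77 times, for *Isg15* 1.36 times, and for *Ifit2* 1.10 times. Over the 8 members with a mean of at least 1 CPM on Geltrex™, the median of this ratio was 1.68, against 0.996 over 12231 genes, 1.26 over 4 OAS genes, and 1.14 over 32 other interferon-stimulated genes. The median log2 fold change over the control was 3.11 without Geltrex™ replicate 3.

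**Figure D4:**
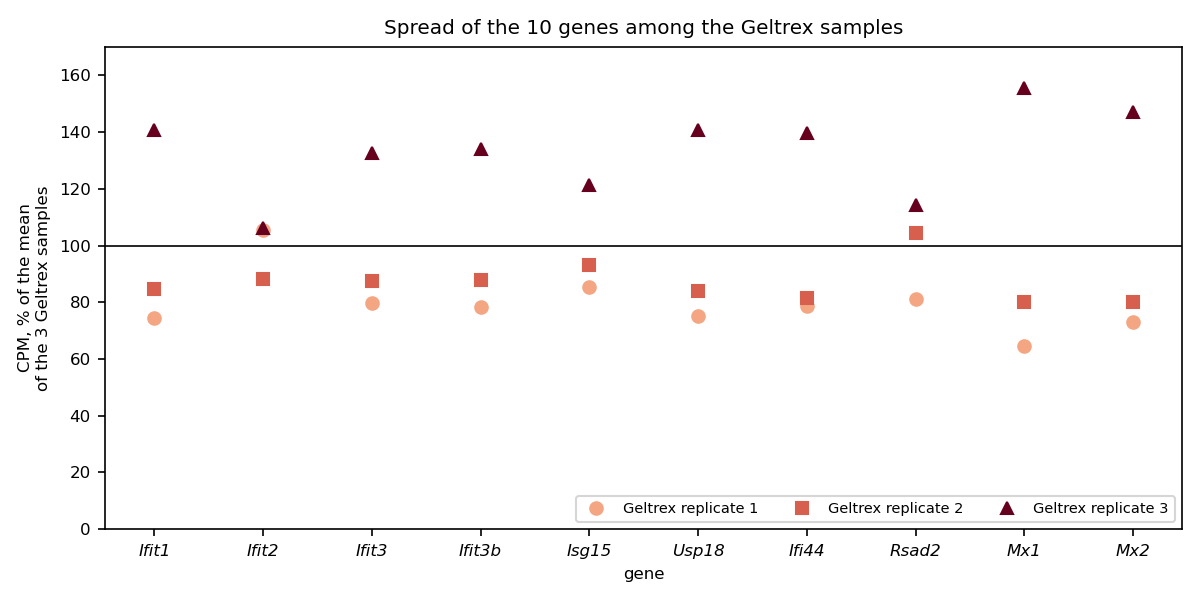
CPM of each gene in the 3 Geltrex™ samples, as a percent of their mean. Replicate 3 lies above 100% for all 10 genes, from 106% for *Ifit2* to 156% for *Mx1*, and for 9 genes replicate 1 is the lowest with 64.5% to 85.4%.

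Other genes of the interferon pathway were examined in 9 lists that hold 111 genes besides the 10. Of these, 15 had no count in any sample and 75 were tested by the quasi-likelihood method of edgeR, with p-values adjusted after Benjamini and Hochberg over 14499 genes. A gene passed, and is said to have risen or fallen, with an adjusted p no higher than 0.05 and a change of 2-fold or more. On Geltrex™ 40 of the 111 rose and 1 fell relative to the control (9.14% of all genes tested passed, 4.15% as higher), 39 rose and 1 fell relative to Collagen I (9.32%, 4.56% as higher), and 33 rose and none fell relative to fibronectin (3.98%, 2.26% as higher). The median log2 fold change over the 75 tested genes was 1.17, 1.01, and 0.95, respectively. Some tested genes, among them *Oas1a*, *Oas2*, *Oas3*, *Trim30a*, *Iigp1*, and *Ddx60*, passed the filter on low counts only through the Geltrex™ samples. They could be tested only because they were high there, which favours higher calls on Geltrex™ in these numbers. Between Collagen I and the control no gene of the lists passed (0.131% of all genes did), with 12 at an unadjusted p under 0.05, and DESeq2 called none.

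**Figure D5:**
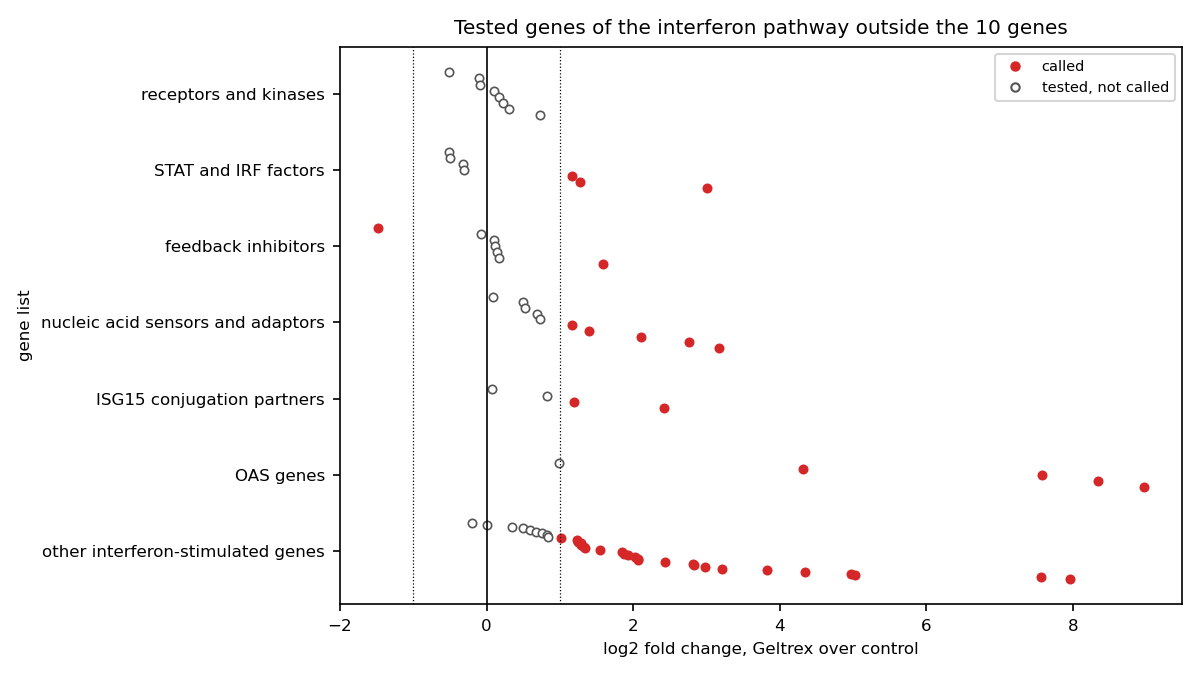
Log2 fold change of Geltrex™ over the control for the 75 tested genes of 7 pathway lists, 1 point for each gene; red points passed an adjusted p of 0.05 and 2-fold, and dotted lines mark 2-fold. The receptor and kinase list has no red point, and 25 of 34 tested genes in the list of other interferon-stimulated genes are red and to the right.

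Among the interferon ligands, 14 of 21 genes had no count in any sample and none was tested. *Ifnb1*, encoding interferon beta, had 1 count in all 12 samples together, in Geltrex™ replicate 2. *Ifng*, encoding interferon gamma, had 0, 1, and 3 counts in the control, 8, 3, and 7 on Collagen I, 0, 1, and 6 on fibronectin, and 8, 5, and 11 on Geltrex™. Its Geltrex™ samples lay above those of the control, with 24 counts against 4 (ratio 6.52, 95% counting interval 2.24 to 25.9), and overlapped those of Collagen I and fibronectin. None of the 9 receptor and kinase genes passed on Geltrex™ over the control, of which 8 were tested. Under 2-fold, 3 were higher and 1 lower at an adjusted p under 0.05 from edgeR, the largest being *Jak2* at 0.73 (adjusted p = 5.50e-05) and *Ifngr2* at -0.51 (adjusted p = 8.52e-05) on the log2 scale, and they were named after their values were seen.

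Among the STAT and IRF factor genes, *Irf7* and *Irf9* rose, and none fell past 2-fold. *Irf7*, the factor that amplifies interferon induction, had 35, 24, and 18 counts in the control and 160, 163, and 247 on Geltrex™, a difference of 3.01 on the log2 scale (SE 0.28, adjusted p = 6.84e-07 from edgeR). *Irf9* rose by 1.27 on the log2 scale (SE 0.14, adjusted p = 4.77e-06 from edgeR). *Stat2*, whose protein joins IRF9 in the ISRE-binding complex, stood at 40.8 CPM in the control and 28.8 CPM on Geltrex™, a difference of -0.50 on the log2 scale (SE 0.11, adjusted p = 0.00215 from edgeR) that was under 2-fold. The log2 fold change of *Irf1* was -0.51 (adjusted p = 0.000448), that of *Irf2* -0.31 (adjusted p = 0.0247), and that of *Irf3* -0.32 (adjusted p = 0.149), all from edgeR and under 2-fold. *Irf9* and *Stat2* had log2 fold changes of opposite sign.

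Among the 4 partners of ISG15 conjugation, *Uba7* and *Herc6* rose. *Uba7*, which encodes the activating enzyme of ISG15, had 24, 16, and 11 counts in the control and 92, 79, and 82 on Geltrex™, and rose by 2.43 on the log2 scale (SE 0.29, adjusted p = 1.11e-05 from edgeR). *Herc6*, which encodes the ligase that joins ISG15 to proteins in the mouse, rose by 1.20 on the log2 scale (SE 0.26, adjusted p = 0.00220 from edgeR), and by 0.99, just under 2-fold, without control replicate 2. *Ube2l6*, the conjugating enzyme gene, was at 50.6 CPM in the control and 53.1 CPM on Geltrex™ (log2 fold change 0.07, 95% interval -0.17 to 0.31, adjusted p = 0.666 from edgeR). *Trim25* differed by 0.83 on the log2 scale (SE 0.087, adjusted p = 2.71e-06 from edgeR), under 2-fold.

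All 10 genes of nucleic acid sensors and adaptors were tested, and 5 rose. *Dhx58* and *Ifih1* encode the RNA sensors LGP2 and MDA5. *Dhx58* rose by 3.17 on the log2 scale (SE 0.39, adjusted p = 1.30e-05 from edgeR), from 15, 8, and 3 counts in the control to 73, 73, and 72. *Ifih1* rose by 2.76 on the log2 scale (SE 0.19, adjusted p = 3.41e-08 from edgeR), and *Zbp1*, a sensor of left-handed nucleic acids, by 2.11 on the log2 scale (SE 0.27, adjusted p = 1.80e-05).

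Of the 7 feedback inhibitor genes, *Socs3*, which encodes a suppressor of cytokine signaling, fell by 1.48 on the log2 scale (SE 0.16, adjusted p = 2.93e-06 from edgeR), from 653, 729, and 502 counts to 237, 208, and 173. *Ptpn6*, named here after its value was seen, had 1, 5, and 6 counts in the control and 11, 14, and 9 on Geltrex™ (log2 fold change 1.59, SE 0.57, adjusted p = 0.0432 from edgeR). It missed the threshold under 8 of 12 alternatives, with adjusted p-values up to 0.200. The feedback gene *Usp18* is among the 10 described above.

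Of the 9 OAS genes, which encode sensors of double-stranded RNA and their effector RNase L, 5 were tested and 4 rose. *Oas2* had 0, 0, and 1 counts in the control and 105, 141, and 167 on Geltrex™, a ratio of 449 with a 95% counting interval of 80.1 to 17776 (adjusted p = 1.71e-07 from edgeR). *Oasl2* rose by 4.32 on the log2 scale (SE 0.23, adjusted p = 4.25e-09 from edgeR). Of 38 other interferon-stimulated genes, 34 were tested and 25 rose. *Trim30a*, which encodes a tripartite motif protein, had 0, 0, and 1 counts in the control and 112, 119, and 86 on Geltrex™ (ratio 345, 95% counting interval 61.4 to 13654, adjusted p = 3.14e-08 from edgeR). *Iigp1*, an immunity-related GTPase gene, had 0, 2, and 0 and then 128, 136, and 150 counts (ratio 225, interval 61.9 to 1864, adjusted p = 4.67e-08 from edgeR). *Phf11d* rose by 5.03 on the log2 scale (SE 0.32, adjusted p = 1.27e-08 from edgeR). Outside Geltrex™, *Oas2*, *Trim30a*, and *Iigp1* had no more than 2, 6, and 5 counts in a sample. These genes passed the filter only through the Geltrex™ samples, so their adjusted p-values are not independent of being high there.

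Of the 40 pathway genes that rose on Geltrex™ over the control, 32 had an entry in the promoter table and 14 of these (43.8%) held the ISRE core. Of the 35 other tested pathway genes, 29 had an entry and 8 (27.6%) held it. Among the 10 genes described here it was 5 of 7. By gene, 3.99% of all 27025 symbols in the table had a window with the core.

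On fibronectin, 2 pathway genes rose and 1 fell relative to the control (6.66% of all genes passed), named here after their values were seen. *Cgas*, encoding a DNA sensor, rose by 1.15 on the log2 scale (SE 0.25, adjusted p = 0.00239 from edgeR), *Phf11d* rose by 1.55 on the log2 scale (SE 0.41, adjusted p = 0.00994), and *Igtp*, an immunity-related GTPase gene, fell by 1.03 on the log2 scale (SE 0.30, adjusted p = 0.0165). The log2 fold change of *Cgas* was 0.97, just under 2-fold, without control replicate 1, and that of *Igtp* was -0.96, -0.997, and -0.84 without control replicate 2, control replicate 3, or fibronectin replicate 2. Relative to Collagen I, 4 pathway genes passed on fibronectin (8.46% of all genes passed, 4.86% as lower), of which *Zbp1* (log2 fold change 1.53, adjusted p = 0.00383 from edgeR) and *Cgas* (1.05, adjusted p = 0.00309) rose, and *Bst2* (-1.16, adjusted p = 0.00830) and *Igtp* (-1.57, adjusted p = 0.000472) fell. Without fibronectin replicate 2, only 2 of these 4 passed, *Zbp1* and *Igtp*, with *Cgas* at 0.91 and *Bst2* at -0.93 on the log2 scale. Without Collagen I replicate 2 *Cgas* was at 0.87, and without Collagen I replicate 3 it was at 0.98 and *Bst2* at -0.80 on the same scale.

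The profile of the 10 genes over the 12 samples was compared with that of every other tested gene with a mean of at least 1 CPM (12312 genes), using Pearson's correlation of log2 CPM with the mean of the standardized member values. This is a description, since all points share the contrast between Geltrex™ and the rest. The most alike was *Ddx58*, which encodes the RNA sensor RIG-I (r = 0.992), at 19.3 ± 1.66 CPM in the control and 51.0 ± 8.45 on Geltrex™ (SD, n = 3). *Oas2*, *Parp14*, *Gbp3*, and *Dtx3l* of the pathway lists were also among the 10 most alike. The other 5 were *Ccn2*, *Arid5b*, *Noct*, *Plk2*, and *Atf3*, which are in none of the lists. *Ccn2*, which encodes a matricellular growth factor, stood at 96.9 ± 5.18 CPM in the control and 548 ± 32.3 on Geltrex™, and *Atf3*, a stress-induced transcription factor gene, at 4.35 ± 0.465 and 65.6 ± 2.05 (SD, n = 3).

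Over the 9 samples outside Geltrex™, the Pearson correlation in log2 CPM between each member and the mean of the other members ran from -0.64 for *Ifit3b* to 0.53 for *Ifit2*, and several of these genes had only a few reads there. Over all 12 samples, the correlation of each member with the mean of all 10, itself included, ran from 0.73 for *Ifit2* to 0.98 for *Usp18*.

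Summed markers of other cell types were not higher on Geltrex™ than in the control. The summed level of 9 leukocyte markers lay between 9.57 and 12.7 CPM in the control samples and between 8.21 and 9.31 CPM on Geltrex™. *Ptprc*, *Adgre1*, *Tyrobp*, *Itgam*, and *Cd3e* had 0 counts in each Geltrex™ sample. Most of the sum came from *Cd14*, with means of 10.1 CPM in the control and 7.37 CPM on Geltrex™. *Cd68* went the other way, with means of 1.08 CPM in the control and 1.40 CPM on Geltrex™. The sum over 6 endothelial markers was 1.91 to 2.97 CPM in the control and 0.897 to 1.49 CPM on Geltrex™. *Cdh5* and *Kdr* had at most 1 count in a Geltrex™ sample. Most of this sum came from *Tek*, with means of 2.24 CPM in the control and 0.951 CPM on Geltrex™. *Pecam1*, with few counts, went the other way, at 0.0519 CPM in the control and 0.145 CPM on Geltrex™. The summed level of muscle markers was lower on both Geltrex™ and fibronectin than in the control, as given above. Single markers differed in this: *Myod1* was at 107 CPM on Geltrex™ and 126 in the control. *Myf6*, with few counts, was at 0.229 CPM on Geltrex™ and 0.188 in the control. The part of the muscle markers in the results was not tested.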

How the data were processed

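RNA from 12 samples of C2C12 GFP cells, 3 in each of 4 groups, was sequenced by the authors with paired reads of 150 bases. The authors deposited unnormalized counts of reads on genes, made by trimming with Trimmomatic, alignment with HISAT2, and counting with featureCounts, with FastQC for quality. They also name DESeq2, whose output was not used here. Tool versions, the genome build, the annotation, and the use of strand are not given in the sources used here. All 55536 identifiers are in GENCODE M21 (GRCm38), which gave names, positions, and exon lengths. Samples were grouped by their titles.

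The model was fitted in R 4.3.3 by edgeR 4.0.16. Low counts were removed by filterByExpr (minimum count 10, minimum total 15), and libraries were scaled by TMM, before 1 quasi-likelihood model was fitted with 8 residual degrees of freedom. A gene passed with 2-fold or more and a Benjamini-Hochberg adjusted p no higher than 0.05. Standard errors are the log2 fold change divided by the root of the F statistic. *Rsad2* and *Mx1* have fold changes from the same model without the filter. Counting intervals are exact 95% binomial intervals of the ratio of summed counts, scaled by library size. Total counts of 22520404 to 27351766 per sample set the precision. A level under 3 counts was regarded as near the floor, and such values entered all results unchanged.

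The 10 genes, the lists of pathway genes, and the tests were chosen with earlier results of these data known. Named from the lists were all tested genes of the ISG15 partners and of the STAT and IRF factors, and in each other list the 3 genes that passed with the largest difference on Geltrex™ and a mean of at least 1 CPM, except a gene that is not reported here. The 10 genes of most similar profile used log2 CPM with a prior count of 2. Promoter windows came from the RefSeq table for GRCm38.p6. The fit was tested on simulated data with 200 changed genes, without a fold minimum, unlike the rule used here. It called 206 genes for Geltrex™ over the control, of which 17 were false. It recovered 85.1% of genes changed 2-fold, 100% at 4-fold, and 98.5% at 8-fold. Alternatives were DESeq2 1.42.0, RLE scaling, other filters, no fold minimum, a prior count of 2, the 6 samples compared, the replicate number as a block, each sample left out, and the Geltrex™ samples summed.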

Additional observations from a re-analysis of the deposited data

How the results depend on the processing

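The 10 genes were chosen by their counts, and every setting uses the same samples, so agreement between settings is not independent support. For the 10 genes, all 360 log2 fold changes of Geltrex™ against another group, over 3 comparisons and all settings, were above 0. Their median over the control lay between 3.11 (without Geltrex™ replicate 3) and 3.93 (without control replicate 1) when each sample was left out, between 3.15 and 3.60 over Collagen I, and between 3.28 and 3.76 over fibronectin. A prior count of 2 lowered the median over Collagen I to 2.76. The *Ifi44* value over Collagen I was 8.66 and became 10.6 without the only Collagen I sample that had a count and 6.33 with that prior. The number of pathway genes that passed lay between 39 and 43 over the control, 34 and 41 over Collagen I, and 34 and 37 over fibronectin when each sample was left out, and between 2 and 6 for fibronectin over Collagen I. Without a minimum fold change, 62 passed over Collagen I and 51 over fibronectin on Geltrex™, and 20 over the control and 22 over Collagen I on fibronectin. Without a filter on low counts, 1 pathway gene passed for Collagen I over the control, where none did otherwise. With DESeq2, 40 genes passed for Geltrex™ over the control, 39 of them shared with the 41. Same-numbered samples did not deviate together in every pair (correlations of -0.02, 0.02, and 0.02 between control and Geltrex™, with 3 of 6 samples closest to their own number). Between fibronectin and Collagen I the correlations were 0.05, 0.17, and 0.23 and 6 of 6 samples were closest to their own number, a hint from the data and not from the design, and with the block the same 4 pathway genes passed there. With the replicate number as a block, 41 pathway genes passed for Geltrex™ over the control, all of them among the 41 above, and the members' median was 3.35. With the 3 Geltrex™ samples summed into 1, 40 passed.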
